A study of Homo sapiens with 6 samples.

Results

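The genes of antigen presentation by MHC class I and class II molecules were followed in HCT116 cells, an established human colorectal carcinoma line, with and without METTL3, the enzyme that writes m6A on RNA. The list held 35 genes of the 56638 gene symbols that were counted. Of these, 16 belonged to the class I route, 15 to the class II route, and 4 were regulators that serve both. The genes were chosen by name with the METTL3-KO against WT results of these same samples already known, so every comparison of METTL3-KO with WT cells is a description of the selected genes and supports nothing by itself. The levels in WT cells and the promoter sequences do not depend on that comparison. Symbols whose counts summed to under 5 in each of the groups were set aside, which left 28 of the 35 genes and 22452 symbols overall to be tested.

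The samples were 3 WT and 3 METTL3-KO libraries, all of HCT116 cells at the same labelled passages, grown in McCoy's 5a medium with serum. By the labels and the study's methods, the METTL3-KO cells came from 1 monoclonal line made with a lentiviral CRISPR/Cas9 vector, puromycin selection and limiting dilution, so a property of that clone and the loss of METTL3 cannot be told apart. The names of the deposited tables use other abbreviations for both groups, and the one for these libraries could be read as an siRNA against METTL3, so the knockout rests here on the labels and the study's account. The study reports that its knockout line was checked by western blot and sequencing, which does not show that these libraries came from it. The WT cells are labelled wild type, and no vector control is named for them. Nothing in the labels says that the libraries of a group came from separate cultures, so p-values measure only the spread between these libraries, which may be technical. RNA was taken from bulk cells, where a lower level in every cell and fewer cells with the RNA cannot be told apart.

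Counts on genes ran from 20936091 to 30142144 per library. METTL3 had 841, 682 and 623 counts in WT cells and 219, 169 and 162 in METTL3-KO cells, a level 4.12-fold lower and in the direction of the labels. Counts of the RNA do not show the edit itself and cannot tell a knockout from a knockdown. Replicate 3 stood apart in both groups: the chi-square per gene was 20.7 and 20.8 between WT replicate 3 and the other WT libraries, and 2.44 between those. In METTL3-KO cells it was 7.61 and 10.1 for replicate 3, and 2.23 between the others. WT replicate 3 and METTL3-KO replicate 3 deviated from their groups in opposite directions (correlation of -0.784 over 10336 genes). Values without replicate 3 of both groups are given for the listed genes and by count for the other lists. The leukocyte list, which stands for professional antigen-presenting cells, had 16 genes, of which 9 never reached 5 counts in any library, MS4A1 and FCER1A at 0 throughout among them, and PTPRC, the pan-leukocyte marker, never exceeded 1 count. Others did reach it: CD14, ITGAM and CD83 had WT means of 5.85, 2.755 and 1.61 CPM (counts-per-million, on scaled library sizes). The summed level of the list was 1019 to 1056 CPM in WT and 679.4 to 736.3 CPM in METTL3-KO cells, nearly all of it LYZ. Of its 10 tested genes CD79A was called higher (edgeR adjusted p under 0.05, which 26.5% of all tested genes met in either direction), CD83 and LYZ lower, and 7 passed in neither direction. The 10 colorectal epithelial markers were all present, with summed levels of 6947 to 8559 CPM in WT and 10030 to 11120 CPM in METTL3-KO cells, and 5 of them were called higher. The part of these shifts in the values below was not tested.

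MHC class I molecules carry peptides from proteins made inside the cell to its surface, where cytotoxic T cells read them. Proteasomes cut the peptides, the TAP transporter moves them into the endoplasmic reticulum, ERAP enzymes trim them, and tapasin helps to load them onto a heavy chain bound to beta-2-microglobulin. MHC class II molecules carry peptides from endosomes to helper T cells. Their chains assemble around the invariant chain, proteases of the endosome remove most of it, and HLA-DM exchanges the remaining fragment for a peptide. Class II genes are on mainly in professional antigen-presenting cells and depend on the transactivator CIITA, whereas most nucleated cells make class I, helped by the transactivator NLRC5 and by interferon-gamma through IRF1. CIITA and NLRC5 are held at the promoters by the RFX complex, by CREB family factors and by NF-Y, which sit on the X and Y boxes.

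Promoter sequence was examined because it is independent of the counts. RefSeq windows of 250 bases before to 50 bases after the annotated start, on GRCh38.p14, were given for 29 of the 35 genes in 41 windows, against 27305 genes in 35116 windows overall. HLA-E, NLRC5, HLA-DRA, CTSS, LGMN and CIITA had no window in the table. The letters of the interferon-stimulated response element (ISRE), GAAANN followed by GAAA and searched on both strands, were in windows of 9 of 14 class I genes (64.3%), of no class II gene among 11, and of RFX5 among the 4 shared regulators. Of all genes with a window, 4.38% held them. The class I holders were HLA-F, B2M, TAP1, TAP2, TAPBP, ERAP1, ERAP2, PSMB8 and PSMB10. TAPBPL, PSMB9, HLA-B, HLA-C and HLA-G did not hold them. Stretches are shown for the matches that lie wholly before the start, which leaves out ERAP1 and PSMB8, because these letters were found in class I windows and in none of the class II windows. Capitals mark matched letters, overlapping matches are run together, TTTC stands for GAAA read on the other strand, and positions are on GRCh37 with the gene's strand. Distances are from the RefSeq start, and the GENCODE spans of B2M and HLA-DMA given with their values begin farther upstream.
B2M, chr15:45003566-45003591, plus strand: tctaaGAAAAGGAAACTGAAAacggg
TAP1, chr6:32821595-32821620, minus strand: gccgcTTTCGATTTCGCTTTCcccta
TAP2, chr6:32806560-32806579, minus strand: gaagcGAAAGCGAAAgctgc
TAPBP, chr6:33281856-33281880, minus strand: tggagGAAAGTGAAAGTGAAAggag
ERAP2, chr5:96212169-96212188, plus strand: gaacaGAAAGTGAAAgcaaa
PSMB10, chr16:67970760-67970779, minus strand: aaggcGAAAGCGAAAgcagg
HLA-F, chr6:29691050-29691069, plus strand: cagagTTTCTCTTTCtctcc
RFX5, chr1:151319668-151319687, minus strand: ggtagTTTCTCTTTCtccct

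ATTGG, the core of the Y box, was in windows of 10 of 11 class II genes (90.9%), 8 of 14 class I genes (57.1%) and 39.7% of all genes. TGACG, the core of the X2 box, was in 5 of 11 class II genes (45.5%), 6 of 14 class I genes (42.9%) and 28.4% of all genes. TTCNNNGAA, the GAS element, was in 4 of 29 genes (13.8%), namely TAP1, PSMB8, HLA-DQA1 and IRF1, against 9.38% of all genes. TGACG followed on the gene's strand by ATTGG, 20 to 30 bases from start to start, an arrangement chosen after the windows were seen, was in windows of 3 of 14 class I genes (HLA-B, HLA-C and B2M; 21.4%), of 0 of 11 class II genes and of 0.3% of all genes. These 3 stretches are shown beside the corresponding letters of HLA-DMA, which held ATTGG without the arrangement, and of HLA-DMB, which held TGACG 100 bases before its start and ATTGG only on the other strand. The B2M stretch begins at the second letter of TGACG.
HLA-B, chr6:31325033-31325062, minus strand: TGACGcgtccccacttcccactcccATTGG
HLA-C, chr6:31239945-31239974, minus strand: TGACGcgtccccaattcccactcccATTGG
B2M, chr15:45003641-45003670, plus strand: GACGgtccctgcgggccttgtcctgATTGG
HLA-DMA, chr6:32920949-32920978, minus strand: tgatgttaaaccctacgcttctctgATTGG
HLA-DMB, chr6:32908876-32908905, minus strand: TGACGtttacctagtaactgatgatgctag

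A match of letters is a description of the window and not a bound site, and no match says only that the letters are not in the window.

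**Figure D1:**
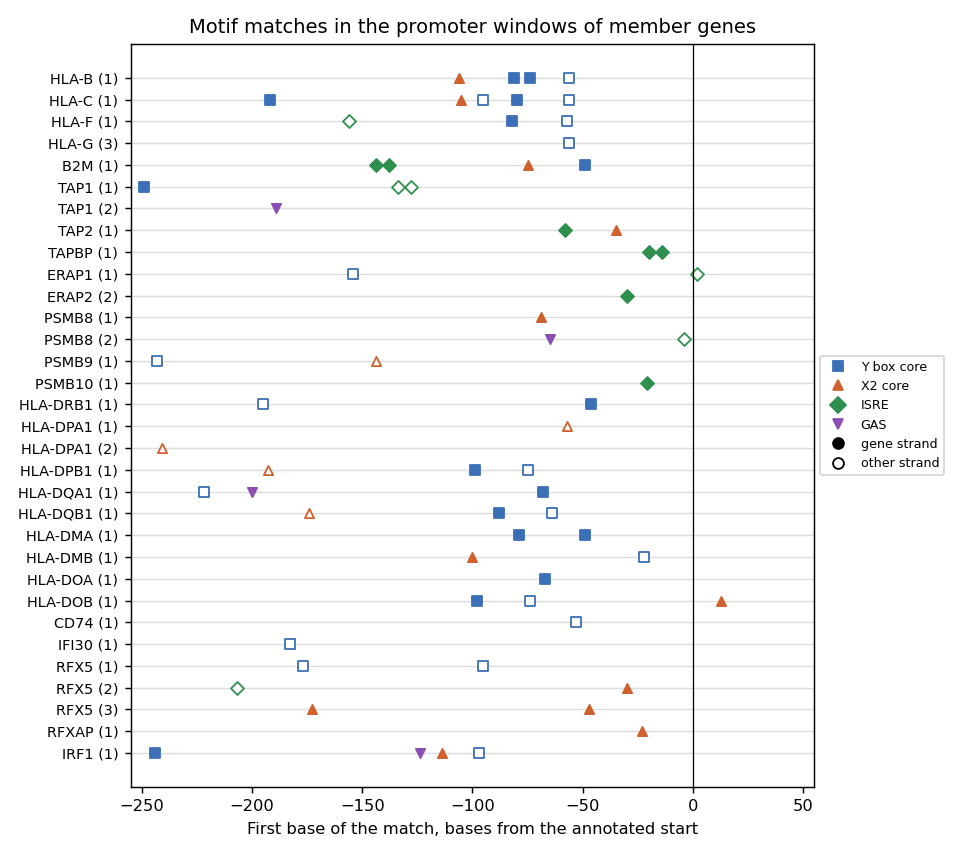
Positions of the 4 motifs in the promoter windows of the listed genes. The horizontal axis gives the first base of a match in bases from the annotated start, negative before it, and each row is a gene with the number of its window in parentheses, for windows with at least 1 match. Filled marks lie on the gene's strand and open marks on the other. The green diamonds (ISRE) lie in class I rows and in RFX5, and in none of the class II rows.

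In WT cells the class I route was present at nearly every step and the class II route only in part. Per kilobase of the longest transcript (RPKM, CPM per kilobase), 21 of the 35 genes reached 1 RPKM in the WT mean. B2M, the light chain, was highest at 219.9 ± 25.01 RPKM (SD, n = 3), followed by LGMN, an asparagine-specific protease of the endosome, at 66.6 ± 3.46 RPKM and by the heavy chain HLA-E at 64.2 ± 7.74 RPKM. LGMN and HLA-E did not differ beyond their spread. TAPBP (tapasin), HLA-C and RFXANK came next at 27.1 ± 1.30, 27.0 ± 6.28 and 26.03 ± 3.91 RPKM, again closer than their spread.

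Among the class I heavy chains the order of WT levels ran from HLA-E to HLA-C, then to HLA-F at 3.22 ± 0.759 RPKM and HLA-B at 0.391 ± 0.114 RPKM. HLA-B, a classical heavy chain, thus rested on 20 to 41 counts in WT libraries, and HLA-G, a nonclassical chain best known from the placenta, on 1 count in WT replicate 3 and 0 elsewhere. Reads that aligned to more than 1 place were left out by the counting, and the HLA genes are near-identical and polymorphic, so the counts of HLA-B and HLA-C are uncertain as levels. In addition, 45.3% of the exon bases of HLA-B are shared with other genes in a GENCODE annotation of GRCh37, and HLA-F shares exon bases as well. Reads in shared exon bases could be dropped by the counting.

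The class II chains that form the peptide-binding dimers were absent from the counts. HLA-DRA, HLA-DRB1, HLA-DPA1, HLA-DPB1, HLA-DQA1 and HLA-DQB1 had 0 counts in all 6 libraries, which allows a level of up to 0.0995 to 0.141 CPM per library (3 counts, counting error only). Reads that aligned to more than 1 place were left out here too, so this limit holds only for reads that the counting could assign. The chains of the peptide exchanger were counted: HLA-DMA stood at 8.58 ± 0.526 RPKM and HLA-DMB at 1.76 ± 0.184 RPKM in WT cells. CD74, the invariant chain, was at 2.78 ± 0.313 RPKM, near CTSS, the protease cathepsin S, at 2.82 ± 0.150 RPKM. HLA-DOA and HLA-DOB, the chains of the HLA-DM inhibitor, and IFI30, a lysosomal thiol reductase, were at 0.0599, 0.254 and 0.0591 RPKM, on no more than 13 counts in any library. With the mean transcript length in place of the longest, 22 genes reached 1 RPKM.

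**Figure D2:**
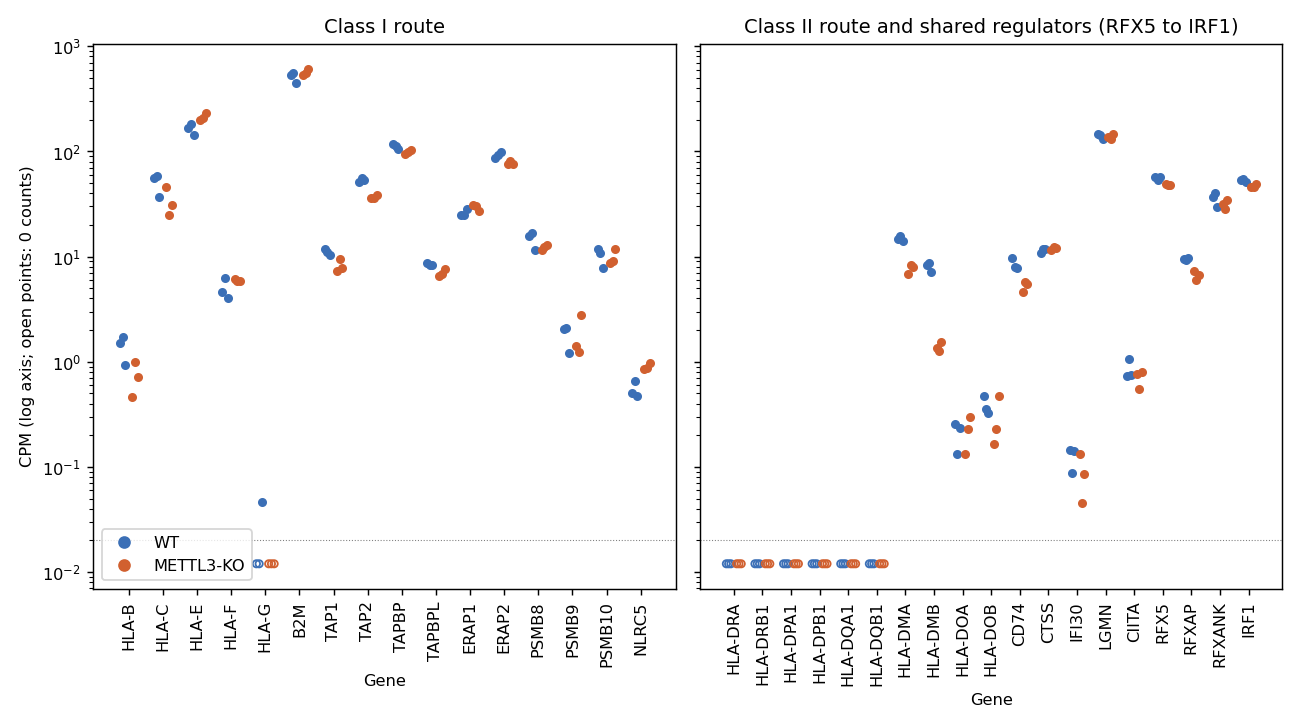
Level of each of the 35 genes in every library, in CPM on a log axis, with WT in blue and METTL3-KO in orange and replicates 1 to 3 from left to right. Open points under the dotted line are 0 counts. The 6 classical class II chains lie there in all libraries, whereas B2M and HLA-E lie above 100 CPM, and the orange points of HLA-DMA, HLA-DMB, CD74, TAP2 and RFXAP lie below the blue ones.

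To compare the groups, edgeR's quasi-likelihood test was run over all 22452 genes, with Benjamini-Hochberg adjusted p under 0.05 as the call. Of the 28 genes tested here, 1 was called higher in METTL3-KO cells (HLA-E) and 8 lower (HLA-DMB, HLA-DMA, HLA-B, CD74, TAP2, RFXAP, TAP1 and ERAP2), and 19 passed in neither direction. Over all tested genes 26.5% were called, 13.3% higher and 13.2% lower, and nothing is read from the difference, since the list was drawn up with this comparison in view. In the class I route 1 gene was called higher, 4 lower and 10 in neither direction. In the class II route 3 were called lower and 6 in neither direction, and of the shared regulators 1 was called lower. The median log2 fold change was -0.18 over the 15 class I genes, -0.44 over the 9 class II genes and -0.20 over the 4 shared regulators, beside -0.02 over all tested genes. The class II median was the value of IFI30, which had 1 to 4 counts per library, so it is weak as a summary of the class. The fold changes of 20 of the 28 genes were negative, as were those of 11630 of all 22452.

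**Figure D3:**
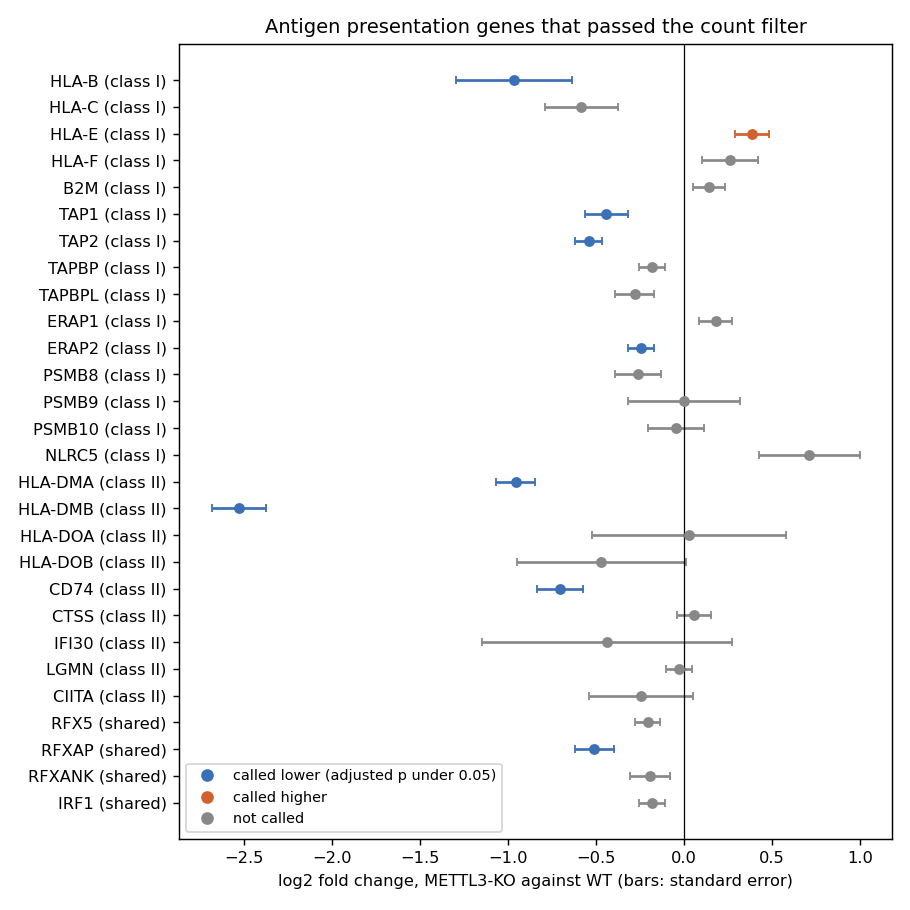
log2 fold change of METTL3-KO against WT for the 28 tested genes, with bars for the standard error. Blue marks genes called lower, orange the gene called higher and grey the rest. HLA-DMB lies farthest from 0 at -2.53, and HLA-E is the only orange point at 0.39.

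Both chains of HLA-DM fell, and HLA-DMB fell most of all 28 genes. HLA-DMB (chr6:32902406-32908805 on GRCh37, minus strand) had 8.34, 8.67 and 7.08 CPM in WT cells and 1.36, 1.27 and 1.53 CPM in METTL3-KO cells. The highest METTL3-KO library was far below the lowest WT library. The means were 8.03 ± 0.839 and 1.39 ± 0.131 CPM (SD, n = 3 each), a log2 fold change of -2.53 (SE 0.154, edgeR adjusted p = 1.05e-06), or 5.78-fold lower. HLA-DMA (chr6:32916390-32936871, minus strand), its partner chain, had 14.8, 15.8 and 14.02 CPM in WT cells and 6.77, 8.33 and 8.04 CPM in METTL3-KO cells. The groups did not overlap, and the log2 fold change was -0.95 (SE 0.111, edgeR adjusted p = 7.83e-05), or 1.94-fold lower.

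The 2 chains did not fall by the same factor. Per length, HLA-DMB was 0.214, 0.208 and 0.192 of HLA-DMA in WT cells and 0.0763, 0.0581 and 0.0723 of it in METTL3-KO cells. All METTL3-KO ratios were below all WT ratios, with means of 0.0689 ± 0.00958 against 0.205 ± 0.0116. In the GENCODE annotation HLA-DMA shares 8.5% of its exon bases with other genes, 1 on its strand and 1 on the opposite strand, and HLA-DMB shares 11.6% with 2 genes on its strand, and reads there could be left out by the counting. The strand setting of the counting is not given in the sources used here.

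CD74 (chr5:149781200-149792532, minus strand), which blocks the groove of new class II dimers and guides them to endosomes, fell as well. It had 9.62, 8.05 and 7.88 CPM in WT cells and 4.64, 5.69 and 5.49 CPM in METTL3-KO cells. The groups did not overlap, and the log2 fold change was -0.70 (SE 0.131, edgeR adjusted p = 0.00188), or 1.63-fold lower. Per length CD74 was 0.325 ± 0.0406 of HLA-DMA in WT cells and 0.388 ± 0.00115 in METTL3-KO cells, where the groups did not overlap either.

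The inhibitor chains and the endosomal enzymes passed in neither direction. HLA-DOB had 13, 8 and 7 counts in WT and 5, 5 and 11 in METTL3-KO cells, and HLA-DOA 7, 3 and 5 against 4, 5 and 7, too few to show any but a large difference. CTSS was at 11.5 ± 0.610 CPM in WT and 11.96 ± 0.455 CPM in METTL3-KO cells, with a log2 fold change of 0.06 (SE 0.0965), and LGMN was at 140.8 ± 7.32 and 138.3 ± 7.57 CPM, with -0.03 (SE 0.0745). IFI30 never exceeded 4 counts. The fall in the class II route among the genes tested was thus in HLA-DMA, HLA-DMB and CD74, on top of dimer chains with no counts in either group.

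CIITA, the transactivator of class II genes, had 0.728, 1.06 and 0.750 CPM in WT cells and 0.763, 0.546 and 0.808 CPM in METTL3-KO cells. The groups overlapped, on 12 to 24 counts per library, and the log2 fold change was -0.24 with an SE of 0.297 (edgeR adjusted p = 0.588). With an SE of that size, a difference as small as that of TAP2 or RFXAP was not detectable at this depth.

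**Figure D4:**
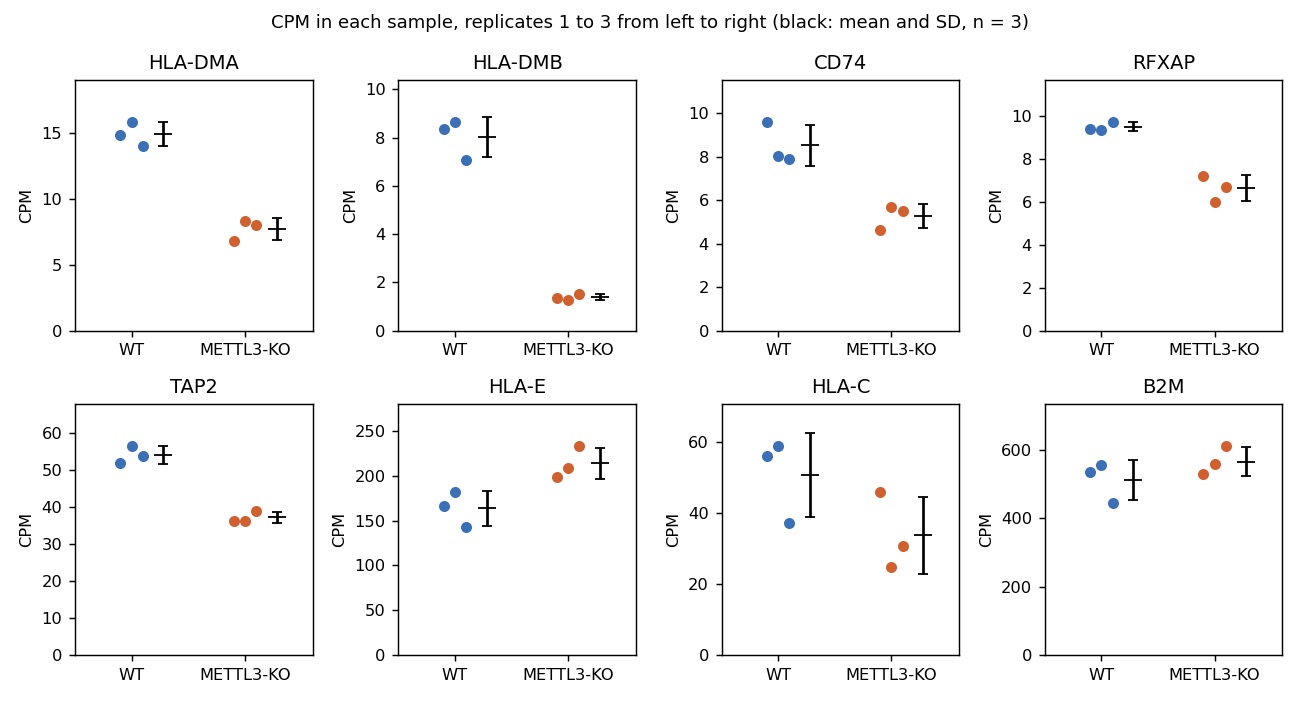
CPM of 8 genes in every library, with replicates 1 to 3 from left to right in each group and the mean and SD in black; each vertical axis starts at 0. In HLA-DMA, HLA-DMB, CD74, RFXAP and TAP2 all METTL3-KO points lie below all WT points, in HLA-E all lie above, and in HLA-C and B2M the groups overlap.

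The class I heavy chains moved in different directions. HLA-E (chr6:30457286-30461971, plus strand), a ligand of inhibitory receptors on natural killer cells, rose: it had 166, 182 and 143 CPM in WT cells and 199, 209 and 233 CPM in METTL3-KO cells. The groups did not overlap, and the log2 fold change was 0.39 (SE 0.0959, edgeR adjusted p = 0.0106), or 1.31-fold higher. HLA-C, a classical heavy chain, had 56.2, 59.0 and 37.3 CPM in WT cells and 45.8, 24.7 and 30.8 CPM in METTL3-KO cells. METTL3-KO replicate 1 was above WT replicate 3, so the groups overlapped. The log2 fold change of HLA-C was -0.58 (SE 0.206, edgeR adjusted p = 0.0567), and it passed without WT replicate 3 (-0.75, edgeR adjusted p = 0.000756) or without METTL3-KO replicate 1 (-0.87, edgeR adjusted p = 0.00824). Without WT replicate 3, 3809 genes were called higher and 3793 lower of 21923, beside 2986 and 2959 of 22452 with all libraries. Passes in that setting, here and for other genes below, thus came with more calls over all genes.

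Within each library the counts of the 2 heavy chains can be compared without a scaling between libraries. The HLA-C counts are uncertain as levels, so their ratio is one of assigned reads. Per length, HLA-C was 0.458, 0.440 and 0.354 of HLA-E in WT cells and 0.312, 0.160 and 0.179 of it in METTL3-KO cells. All METTL3-KO ratios were below all WT ratios, although the highest METTL3-KO ratio (replicate 1) lay near the lowest WT ratio (replicate 3).

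HLA-B was called lower from few counts. It had 41, 39 and 20 counts in WT cells and 14, 22 and 17 in METTL3-KO cells, or 1.49, 1.73 and 0.938 against 0.464, 1.00 and 0.723 CPM. WT replicate 3 lay below METTL3-KO replicate 2, so the groups overlapped. The log2 fold change was -0.97 (SE 0.330, edgeR adjusted p = 0.0487), and leaving out WT replicate 1, WT replicate 2, METTL3-KO replicate 1 or METTL3-KO replicate 3 ended the call, with edgeR adjusted p of 0.133, 0.169, 0.194 and 0.0937 in that order. HLA-F, a nonclassical chain, was at 4.97 and 5.96 mean CPM with a log2 fold change of 0.26 (SE 0.159), not called, and passed only without WT replicate 2 (0.47, edgeR adjusted p = 0.0424).

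B2M (chr15:45003556-45011049, plus strand), the light chain of class I molecules, was not called. It had 535, 556 and 446 CPM in WT cells and 529, 558 and 612 CPM in METTL3-KO cells. The groups overlapped, and the log2 fold change was 0.14 (SE 0.0911, edgeR adjusted p = 0.279). Without replicate 3 in either group it was -0.01, and with a correction for transcript length and GC content B2M passed (0.20, edgeR adjusted p = 0.0334).

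Of the peptide transporter and its partners, both subunits of TAP fell. TAP2 (chr6:32789610-32806516, minus strand) had 51.8, 56.5 and 53.7 CPM in WT cells and 36.3, 36.2 and 39.0 CPM in METTL3-KO cells. The groups were well apart, and the log2 fold change was -0.54 (SE 0.0762, edgeR adjusted p = 0.000289), or 1.45-fold lower. TAP1 had 11.9, 10.97 and 10.3 CPM against 7.30, 9.46 and 7.82 CPM, also without overlap, with a log2 fold change of -0.44 (SE 0.122, edgeR adjusted p = 0.0186).

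The TAP1 call was lost without WT replicate 1 (edgeR adjusted p = 0.0891), WT replicate 2 (0.0586), METTL3-KO replicate 1 (0.100) or METTL3-KO replicate 3 (0.0586), while its log2 fold change stayed between -0.55 and -0.35. TAPBP and TAPBPL, the tapasin that bridges TAP and heavy chain and its homolog that edits peptides, were lower in all METTL3-KO libraries than in any WT library but were not called, with log2 fold changes of -0.18 (SE 0.0719) and -0.28 (SE 0.111). TAPBP passed without WT replicate 3 (-0.21, edgeR adjusted p = 0.0153). In the GENCODE annotation 19.5% of the exon bases of TAP2 are shared with another gene on the same strand and 14.2% of those of TAP1 with an antisense RNA.

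The trimming enzymes ERAP1 and ERAP2, aminopeptidases of the endoplasmic reticulum, had fold changes of opposite sign. ERAP2 had 86.7, 93.3 and 98.5 CPM in WT cells and 76.7, 81.7 and 76.8 CPM in METTL3-KO cells. The groups did not overlap, and the log2 fold change was -0.24 (SE 0.0756, edgeR adjusted p = 0.0320). Its call was lost without WT replicate 2 and without each of the METTL3-KO replicates, with edgeR adjusted p from 0.0640 to 0.129. ERAP1 was at 26.03 ± 2.19 and 29.5 ± 2.11 CPM and was not called at a log2 fold change of 0.18, though it passed without WT replicate 3 (0.26, edgeR adjusted p = 0.0270).

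The immunoproteasome subunits PSMB8, PSMB9 and PSMB10, which replace the constitutive catalytic subunits after interferon, passed in neither direction, at log2 fold changes of -0.26, 0.0011 and -0.04. PSMB9 was low, with 26 to 65 counts per library, and METTL3-KO replicate 3 had the highest of its 6 values. PSMB8 passed without WT replicate 3 (-0.39, edgeR adjusted p = 0.00347). Against the constitutive subunits they replace, per length, PSMB8 stood at 0.139 ± 0.0126 of PSMB5 in WT and 0.130 ± 0.00329 of it in METTL3-KO cells. The ratio of PSMB9 to PSMB6 was 0.00850 ± 0.00164 against 0.00821 ± 0.00329, and that of PSMB10 to PSMB7 was 0.0567 ± 0.00562 against 0.0540 ± 0.00489. The groups overlapped in each ratio, and the constitutive subunit had the higher level in every library. In the GENCODE annotation PSMB8, PSMB9 and PSMB10 share 17.3%, 5.2% and 39.4% of their exon bases with other genes. Reads there could be left out by the counting, which would lower these ratios, and the sharing of the constitutive subunits was not examined.

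NLRC5, the transactivator of class I genes, had 0.510, 0.664 and 0.469 CPM in WT cells and 0.862, 0.864 and 0.978 CPM in METTL3-KO cells. All METTL3-KO libraries were above all WT libraries, on 10 to 26 counts per library. The log2 fold change was 0.71 (SE 0.288) and did not pass (edgeR adjusted p = 0.0902), nor did it under any alternative that was run.

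Among class I genes with a window, the 9 that held the ISRE letters had log2 fold changes from -0.54 to 0.26 with a median of -0.18, and 3 of them (TAP1, TAP2 and ERAP2) were called lower. The 4 tested genes without the letters ranged from -0.97 to 0.0011 with a median of -0.43, and HLA-B was called lower. The ranges overlapped.

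Of the regulators shared by both routes, RFXAP was called lower. RFXAP (chr13:37393359-37403241, plus strand), a subunit of the RFX complex that binds the X box, had 9.40, 9.38 and 9.75 CPM in WT cells and 7.23, 6.01 and 6.72 CPM in METTL3-KO cells. The groups did not overlap, and the log2 fold change was -0.51 (SE 0.111, edgeR adjusted p = 0.00490), or 1.42-fold lower. RFX5, the DNA-binding subunit, had 57.1, 53.4 and 57.2 CPM in WT and 49.2, 48.2 and 48.1 CPM in METTL3-KO cells, also without overlap, at a log2 fold change of -0.21 (SE 0.0717, edgeR adjusted p = 0.0540). It passed without WT replicate 3 (-0.19, edgeR adjusted p = 0.0461).

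RFXANK, the third subunit, had 37.1, 40.4 and 29.9 CPM in WT cells and 31.6, 28.3 and 34.2 CPM in METTL3-KO cells, and the groups overlapped. Its log2 fold change was -0.19 (SE 0.1135), and without WT replicate 3 it was -0.30 (edgeR adjusted p = 0.00899). IRF1, the factor that carries the interferon-gamma signal to ISRE sites, had 54.1, 54.3 and 51.6 CPM in WT cells and 45.8, 46.0 and 49.2 CPM in METTL3-KO cells. The groups of IRF1 did not overlap, the log2 fold change was -0.18 (SE 0.0732, edgeR adjusted p = 0.0885), and without WT replicate 3 it was -0.20 (edgeR adjusted p = 0.0291).

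Leaving out replicate 3 of both groups changed the counts of calls most. WT replicate 3 had deviated with METTL3-KO replicates 1 and 2 (correlations of 0.657 and 0.505), and METTL3-KO replicate 3 with WT replicates 1 and 2 (0.719 and 0.632). The libraries left in the 2 groups thus lay on opposite sides of this deviation, so it and the group cannot be told apart in these calls. Among 21242 genes 44.1% were then called, 21.4% higher and 22.7% lower, and of the 28 genes 2 were called higher and 18 lower. HLA-DMB, HLA-DMA, CD74, TAP2 and RFXAP stood at -2.68, -1.04, -0.80, -0.58 and -0.49, and HLA-E at 0.23. PSMB8 (-0.43, edgeR adjusted p = 0.000122), PSMB9 (-0.62, edgeR adjusted p = 0.0319) and PSMB10 (-0.35, edgeR adjusted p = 0.00714) were then called lower, as were HLA-C, TAPBP, TAPBPL, LGMN, RFX5, RFXANK and IRF1, and ERAP1 was called higher (0.31, edgeR adjusted p = 0.000276). The class I median was -0.35 and the class II median -0.40 without replicate 3, nearer to each other than with all libraries. Without METTL3-KO replicate 2 the class II median was -0.17 and the class I median -0.18. The class II median was the value of IFI30 there and with all libraries, on 1 to 4 counts per library. The order of the classes thus rested on few counts of that gene. Without WT replicate 3 alone, 2 of the listed genes were called higher and 14 lower. The WT libraries left there, replicates 1 and 2, deviated against METTL3-KO replicates 1 and 2. Part of the same limit therefore holds for the passes given above without WT replicate 3.

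**Figure D5:**
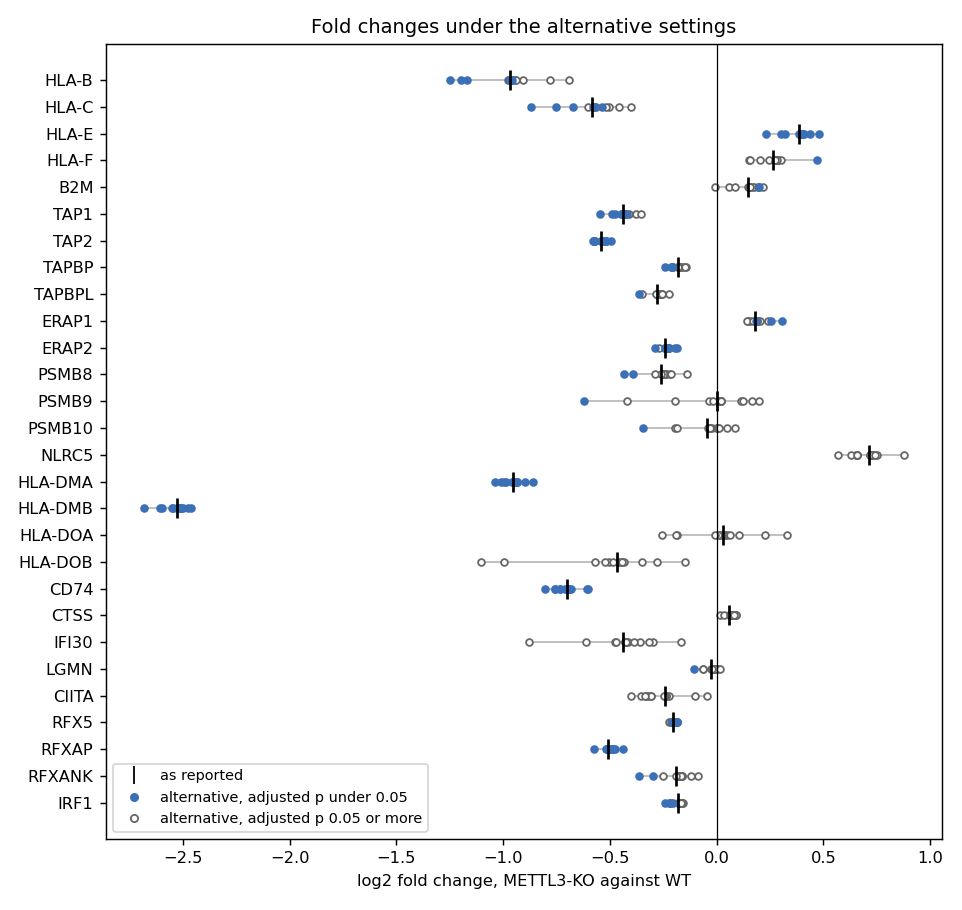
log2 fold change of METTL3-KO against WT for the 28 tested genes as reported (black bars) and under up to 15 alternative settings (circles, filled where the adjusted p is under 0.05). HLA-DMB stayed between -2.68 and -2.46 and HLA-DMA between -1.04 and -0.86 with all circles filled, whereas the circles of HLA-B, HLA-C and PSMB9 are mixed.

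The genes around the 2 routes were taken from lists that were drawn up with earlier results of these data known, and each count can be set beside the 26.5% called over all genes. Of the 6 constitutive proteasome and activator genes none was called, with a median log2 fold change of 0.05. Of 5 chaperones of the endoplasmic reticulum that take part in class I folding 3 rose and 2 passed in neither direction. CALR (calreticulin), HSPA5 (BiP) and PDIA3 (the oxidoreductase ERp57 of the loading complex) had log2 fold changes of 0.57, 0.55 and 0.40 (SE 0.0924, 0.0798 and 0.0881, edgeR adjusted p = 0.000715, 0.000345 and 0.00514).

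Of 8 other proteases and protease inhibitors of the class II route 1 was called higher and 1 lower. CTSV, cathepsin V, fell from 16.4 ± 0.428 to 8.83 ± 1.09 CPM, and CTSZ, cathepsin Z, rose from 492 ± 51.9 to 655 ± 35.5 CPM, with log2 fold changes of -0.90 and 0.41. Of 10 genes of interferon-gamma signalling IRF2, a repressor at ISRE sites, was called higher at a log2 fold change of 0.31 (edgeR adjusted p = 0.0302), and the other 9, among them both receptor chains, JAK1 and JAK2, passed in neither direction. Of 5 genes for NF-Y, CREB1 and ATF1 only ATF1 was called, higher at 0.36 (edgeR adjusted p = 0.00533).

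Of 10 tested class I-like and stress ligands 1 was called higher and 4 lower. ULBP2, a ligand of the activating receptor NKG2D, fell from 7.41 ± 1.00 CPM in WT to 2.10 ± 0.217 CPM, a log2 fold change of -1.82 (SE 0.155, edgeR adjusted p = 8.96e-06), and ULBP1, another, had -0.95 (SE 0.208, edgeR adjusted p = 0.00513). FCGRT, the heavy chain of the neonatal Fc receptor, which also pairs with B2M, fell from 139 ± 18.8 to 100.3 ± 12.6 CPM. Of the 3 ubiquitin ligases of the MARCH family, which remove surface proteins including MHC molecules, 2 were called lower. MARCH8 fell from 24.0 ± 2.56 to 11.3 ± 1.57 CPM, a log2 fold change of -1.08 (SE 0.119, edgeR adjusted p = 5.13e-05), and MARCH9 had -0.49 (SE 0.108, edgeR adjusted p = 0.00504).

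All genes of these lists that were called, and those of the leukocyte and epithelial lists, were also called in the same direction without replicate 3 of both groups, where 44.1% of all genes were called. In that setting the group and the deviation shared between libraries cannot be told apart. More genes passed there: the constitutive proteasome and activator list had 3 called lower, the chaperones 5 higher, the other proteases 1 higher and 3 lower, interferon-gamma signalling 3 higher and 1 lower, and the genes for NF-Y, CREB1 and ATF1 3 higher and 1 lower. The epithelial list had 5 called higher and 3 lower. The log2 fold change of PDIA3 was then 0.25.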

How the data were processed

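RNA-seq read counts of 3 WT and 3 METTL3-KO HCT116 samples were analysed; none was left out or pooled. The files deposited by the authors hold unnormalized counts for each gene symbol. The authors mapped paired-end reads of TruSeq libraries to hg19 with TopHat2 2.0.11 (as listed in the submitters' processing notes), using an Ensembl GRCh37 transcript index, and counted read pairs with htseq-count in union mode. Reads in more than 1 gene (7.95% to 8.77% of the total) or place (13.4% to 14.7%) were thereby left out, so overlapping or near-identical genes are undercounted. All unassigned reads (28.2% to 30.7%) stayed out of library sizes. The authors' own test used DESeq2. The names of the deposited tables carry other abbreviations for both groups and other replicate numbers for WT than the labels do, and the labels were used.

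Genes whose counts summed to under 5 in each of the groups were not tested. METTL3-KO was compared with WT by edgeR's quasi-likelihood test (edgeR 4.0.16, R 4.3.3), TMM-normalized, two-sided, with Benjamini-Hochberg adjustment over 22452 genes. SE is the size of the log2 fold change divided by the square root of F. CPM uses TMM-scaled library sizes, and RPKM the longest transcript of GENCODE v44 on GRCh37, matched by symbol for 33872 of 56638 symbols and 35 of 35 listed genes. The common biological coefficient of variation was 0.0907. Levels resting on few counts carry counting error as well: 3 counts are 0.0995 to 0.141 CPM.

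The genes and all lists were chosen with earlier results of these data known. Every listed gene is accounted for. Values in every sample are given for called genes of at least 1 CPM on average, for CIITA, NLRC5, IRF1, the RFX subunits, B2M and CD74, and up to 3 called genes with the smallest p are named per further list. Genes named outside this rule, such as HLA-C in full, were chosen after their values were seen.

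Alternatives were DESeq2 1.42.0, the replicate number as a block, RLE and upper-quartile scaling, the filterByExpr filter, only a filter of 1 count, a correction for transcript length and GC content (splines with 5 degrees of freedom, from genes over 3 log2 CPM) with and without the block, each library left out in turn, and replicate 3 of both groups left out. The fit was tested on simulated data. Promoter letters were searched on both strands in RefSeq windows (GRCh38.p14), and printed stretches were placed on GRCh37 by exact match.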

Additional observations from a re-analysis of the deposited data

How the results depend on the processing

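HLA-DMB, HLA-DMA, CD74, TAP2 and RFXAP were called lower under all 15 alternatives, at log2 fold changes of -2.68 to -2.46, -1.04 to -0.86, -0.80 to -0.60, -0.58 to -0.50 and -0.58 to -0.44. HLA-E was called in 14, TAP1 and ERAP2 in 10 each, and HLA-B in 6, with adjusted p up to 0.194; HLA-C, not called as reported, passed in 6. Samples with the same labelled replicate number had deviations with negative correlations (-0.784 to -0.39 over 10336 genes). The deviations of the 3 libraries of a group sum to 0, so replicate 3 of each group largely sets the signs of all the correlations. They therefore cannot decide whether libraries were paired by number. Positive values were those of METTL3-KO replicate 3 with WT replicates 1 and 2 (0.719 and 0.632), and of WT replicate 3 with METTL3-KO replicates 1 and 2 (0.657 and 0.505). These follow in large part from the opposite deviation of replicate 3 in the groups. WT replicate 1 with METTL3-KO replicate 2 (-0.482) and WT replicate 2 with METTL3-KO replicate 1 (-0.546) had negative values. The source of this shared deviation was not tested. With the replicate number as a block 1810 genes were called higher and 1719 lower, and of the listed genes 0 higher and 5 lower; HLA-E (adjusted p = 0.0633), TAP1, ERAP2 and HLA-B did not pass. With the length and GC correction 3 listed genes were called higher and 12 lower, B2M among the higher, and 3730 and 3713 of all genes. With 1 library or replicate 3 of both groups left out, listed genes called ranged from 1 to 2 higher and from 5 to 18 lower, all genes called from 2188 to 4555 higher and from 1976 to 4823 lower, and the class II median from -0.52 to -0.17. That median, of 9 genes, was -0.30 without WT replicate 1, -0.31 without METTL3-KO replicate 1 and -0.17 without METTL3-KO replicate 2. These were the values of IFI30, CIITA and IFI30 in that order. Signs turned for 5 genes near 0. PSMB9 was -0.0351 with the block, -0.0185 with the block and the correction, -0.42 to 0.20 with 1 library left out and -0.62 (edgeR adjusted p = 0.0319, the only one of these to pass) without replicate 3 of both groups. PSMB10 was 0.000114 with the correction, 0.00255 with the block added, and -0.195 to 0.0839 with 1 library left out. HLA-DOA was -0.25 to 0.33 and LGMN -0.0653 to 0.0154 with 1 library left out, and without replicate 3 of both groups HLA-DOA was -0.19 and B2M -0.00656. The cause was not tested. DESeq2 called 1 listed gene higher and 7 lower, without HLA-B (adjusted p = 0.0699). Of the listed genes' fold changes under the alternatives, 349 values kept direction and side of the threshold, 29 passed it newly, 20 no longer passed and 18 changed sign. Counts of 1 to 26 per library limit HLA-DOA, HLA-DOB, IFI30, CIITA and NLRC5.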
